A study of Rattus norvegicus with 15 samples.

Results

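Transcripts of 7 chemokines, Ccl2, Ccl3, Ccl4, Cxcl1, Cxcl10, Cxcl11 and Cxcl13, were followed across 15 arrays of RNA from the rat nucleus accumbens. The genes were chosen from these same values, because an array stood far above the others in some of them. Their levels are therefore a description, and the differences and SEs of the fit over all genes, given further on, support nothing about these 7. Each was measured by 1 probe set with a single gene symbol, so that 7 of the 14497 named genes of the table were followed, and all 7 were among the 11778 kept by a filter on low values. The filter asked for 3 or more arrays with an intensity over the 30th percentile. Ccl2, Ccl3, Ccl4, Cxcl1 and Cxcl10 were over that percentile on 15 arrays, Cxcl13 on 9 and Cxcl11 on 7. Because a gene could enter through the arrays on which it was high, the passing of Cxcl11 and Cxcl13 is no support for a difference.

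The animals were male Sprague-Dawley rats with a jugular catheter, in 5 groups of 3 arrays. In 4 groups the rats had self-administered cocaine for 6 hours a day over 10 days, at 0.75 mg/kg per infusion, with a light as the cue paired with each infusion. The 30C group had 30 days of withdrawal and then an extinction test of cue-induced cocaine seeking, and the 30W group had 30 days of withdrawal with no test. The 1C group had 1 day of withdrawal and the same test, and the 1W group had 1 day of withdrawal with no test. The Sal group self-administered saline, and the labels give for it neither a withdrawal time nor a test. Whether each array came from 1 rat or from a pool is not stated either, so the spread between replicates may be partly technical. The comparisons ask how transcripts differ with the length of withdrawal and with the seeking test.

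Chemokines are small secreted proteins that guide leukocytes through receptors coupled to G proteins. Ccl2 draws monocytes through Ccr2, Ccl3 and Ccl4 draw monocytes and T cells, and Cxcl1, known in the rat as CINC-1, draws neutrophils through Cxcr2. Cxcl10 and Cxcl11, like Cxcl9, are induced by interferon-gamma and act on Cxcr3 of T cells and natural killer cells, and Cxcl13 directs B cells through Cxcr5. In brain tissue these transcripts are known to be low at rest and to be made by microglia, astrocytes, endothelial cells and entering leukocytes when inflammatory signals act through NF-kB or interferon.

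The promoters of the CXC members are shown because Cxcl1, Cxcl10 and Cxcl11 lay apart on partly different arrays while Cxcl13 had no such surge, and because NF-kB and interferon factors are the textbook regulators of the family. RefSeq promoters of build GRCr8 were at hand for 4 of the 7 genes, namely Cxcl1, Cxcl10, Cxcl11 and Cxcl13. Each line gives the 250 bases before the annotated start, 5′ to 3′ on the strand of the gene. Capitals mark matches to the NF-kappaB consensus and to the core of an interferon response element, which is GAAA, any 2 bases and GAAA again, on either strand. The regions are chr14:17479322-17479571 on the minus strand for Cxcl1, chr14:15988816-15989065 on the plus strand for Cxcl10, chr14:15973478-15973727 on the plus strand for Cxcl11 and chr14:13917921-13918170 on the minus strand for Cxcl13.
Cxcl1: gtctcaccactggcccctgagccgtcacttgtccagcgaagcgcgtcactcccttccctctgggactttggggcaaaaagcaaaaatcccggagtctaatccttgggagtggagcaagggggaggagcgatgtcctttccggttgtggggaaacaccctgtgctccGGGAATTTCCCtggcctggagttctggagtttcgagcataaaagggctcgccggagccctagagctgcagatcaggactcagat
Cxcl10: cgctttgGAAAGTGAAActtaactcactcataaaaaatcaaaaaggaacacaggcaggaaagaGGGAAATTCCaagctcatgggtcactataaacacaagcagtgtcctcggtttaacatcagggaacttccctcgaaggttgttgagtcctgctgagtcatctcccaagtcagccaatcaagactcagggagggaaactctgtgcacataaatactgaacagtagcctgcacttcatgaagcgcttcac
Cxcl11: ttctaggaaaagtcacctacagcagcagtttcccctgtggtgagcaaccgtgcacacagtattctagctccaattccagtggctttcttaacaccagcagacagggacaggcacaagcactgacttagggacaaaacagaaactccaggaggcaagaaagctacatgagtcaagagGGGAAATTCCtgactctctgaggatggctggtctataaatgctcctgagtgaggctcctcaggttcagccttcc
Cxcl13: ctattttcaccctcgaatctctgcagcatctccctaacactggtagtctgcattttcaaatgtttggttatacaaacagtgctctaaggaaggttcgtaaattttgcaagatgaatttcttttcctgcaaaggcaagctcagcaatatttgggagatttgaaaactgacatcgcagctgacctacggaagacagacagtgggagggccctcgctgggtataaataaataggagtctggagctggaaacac

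In the Cxcl1 promoter the kappaB match GGGAATTTCC began 84 bases before the start, and a second match on the other strand began 83 bases before it and overlapped the first. The Cxcl10 promoter held the kappaB match GGGAAATTCC at 187 bases and the interferon element GAAAGTGAAA at 243 bases before the start. Cxcl11 held the same letters GGGAAATTCC at 74 bases before the start, with no match to the interferon element in the window. Cxcl10 and Cxcl11 each also held TGANTCA, the AP-1 motif, as TGAGTCA, at 96 bases before the start in Cxcl10 and at 85 bases in Cxcl11. None of the 3 motifs was found in these letters of Cxcl13 or of Cxcl9, while Cxcl2 held overlapping kappaB matches at 74 and 73 bases. Of 27455 promoters of the same length, 3.52% held the kappaB consensus, 3.29% held the interferon element and 6.36% held TGANTCA. These matches describe the letters and are no evidence of binding in these samples.

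All values below are log2 intensities that the authors had normalised by RMA, 1 unit being a doubling. The excess of an array is its value minus the gene's median over the 15 arrays. Ccl2, the monocyte attractant, read 6.05, 6.22 and 6.03 in replicates 1 to 3 of 30C and 5.86, 5.95 and 5.92 in 30W. It read 6.22, 9.75 and 6.10 in 1C, against 6.04, 6.10 and 6.00 in 1W and 5.99, 6.04 and 6.18 in Sal. A single array, 1C replicate 2, stood apart, and the other 14 lay between 5.86 and 6.22. The excess of 1C replicate 2 was 3.71, a 13.1-fold higher intensity than a median that lay at the 32.6 to 34.9 percentile of the arrays, and its gap to the next array was 3.52, where the SD of the other 14 arrays was 0.11. Among the highest excesses of the 14497 genes, this was rank 2.

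Cxcl1, the neutrophil attractant, had the same shape at a smaller size. Its values were 6.38, 6.70 and 6.49 in 30C and 6.51, 6.65 and 6.39 in 30W. In 1C they were 6.34, 7.82 and 6.37, against 6.43, 6.55 and 6.48 in 1W and 6.47, 6.47 and 6.42 in Sal. Only 1C replicate 2 lay apart, by 1.11 above the next array, with an excess of 1.34 or 2.53-fold. The other 14 arrays lay between 6.34 and 6.70.

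Cxcl10, a ligand of Cxcr3, was high on 3 arrays from 2 groups. It read 6.33, 6.42 and 6.42 in 30C, and 8.51, 6.53 and 8.42 in 30W. The 1C arrays read 6.53, 9.28 and 6.75, against 6.16, 6.65 and 6.54 in 1W and 6.65, 6.68 and 6.32 in Sal. The excess was 2.73 on 1C replicate 2, a 6.64-fold higher intensity, 1.97 on 30W replicate 1 and 1.87 on 30W replicate 3. The other 12 arrays, 30W replicate 2 included, lay between 6.16 and 6.75 with an SD of 0.17. The lower of the 30W surges was thus 1.67 above the highest of those 12 arrays.

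Cxcl11, which shares Cxcr3 with Cxcl10, was high on the same 3 arrays in another order. Its values were 5.55, 5.64 and 5.85 in 30C and 6.84, 5.89 and 7.76 in 30W. In 1C it read 5.72, 6.97 and 5.89, against 5.64, 5.75 and 6.15 in 1W and 5.84, 5.60 and 5.69 in Sal. Its highest array was 30W replicate 3, with an excess of 1.92, which lay 0.79 above 1C replicate 2. The median of Cxcl11 lay at the 28.9 to 31.2 percentile of the arrays, close to the percentile of the filter, so no fold is read from it. The excess was 1.13 on 1C replicate 2 and 0.99 on 30W replicate 1, and the other 12 arrays lay between 5.55 and 6.15.

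Cxcl13, Ccl3 and Ccl4 had their highest value on 1C replicate 2, but with small excesses. The B cell attractant Cxcl13 read 5.89, 5.72 and 6.22 in 30C, 5.94, 5.40 and 5.95 in 30W, and 6.08, 6.54 and 5.73 in 1C, against 5.75, 6.00 and 5.93 in 1W and 5.88, 5.70 and 5.76 in Sal. Its excess on 1C replicate 2 was 0.65, with a gap of 0.33 to 30C replicate 3, and the other 14 arrays had an SD of 0.20. This gene had no surge of 1 unit on any array.

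Ccl3, a ligand of Ccr1, read 6.32, 6.31 and 6.00 in 30C, 6.06, 6.09 and 6.27 in 30W, and 6.04, 6.68 and 6.14 in 1C, against 6.15, 5.89 and 6.05 in 1W and 5.96, 6.13 and 6.14 in Sal. Its excess on 1C replicate 2 was 0.55, 0.36 above 30C replicate 1. Ccl4, whose gene lies next to Ccl3, read 6.37, 6.73 and 6.42 in 30C, 6.58, 6.49 and 6.63 in 30W, and 6.42, 6.77 and 6.29 in 1C, against 6.19, 6.40 and 6.37 in 1W and 6.08, 6.31 and 6.49 in Sal. Its value on 1C replicate 2 exceeded that of 30C replicate 2 by only 0.04, so no array of Ccl4 stood apart from the rest. A surge on a single array was therefore seen in Ccl2 and Cxcl1, high values on 3 arrays in Cxcl10 and Cxcl11, and neither in Cxcl13, Ccl3 and Ccl4, none of which had an array 1 unit above its median.

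**Figure D1:**
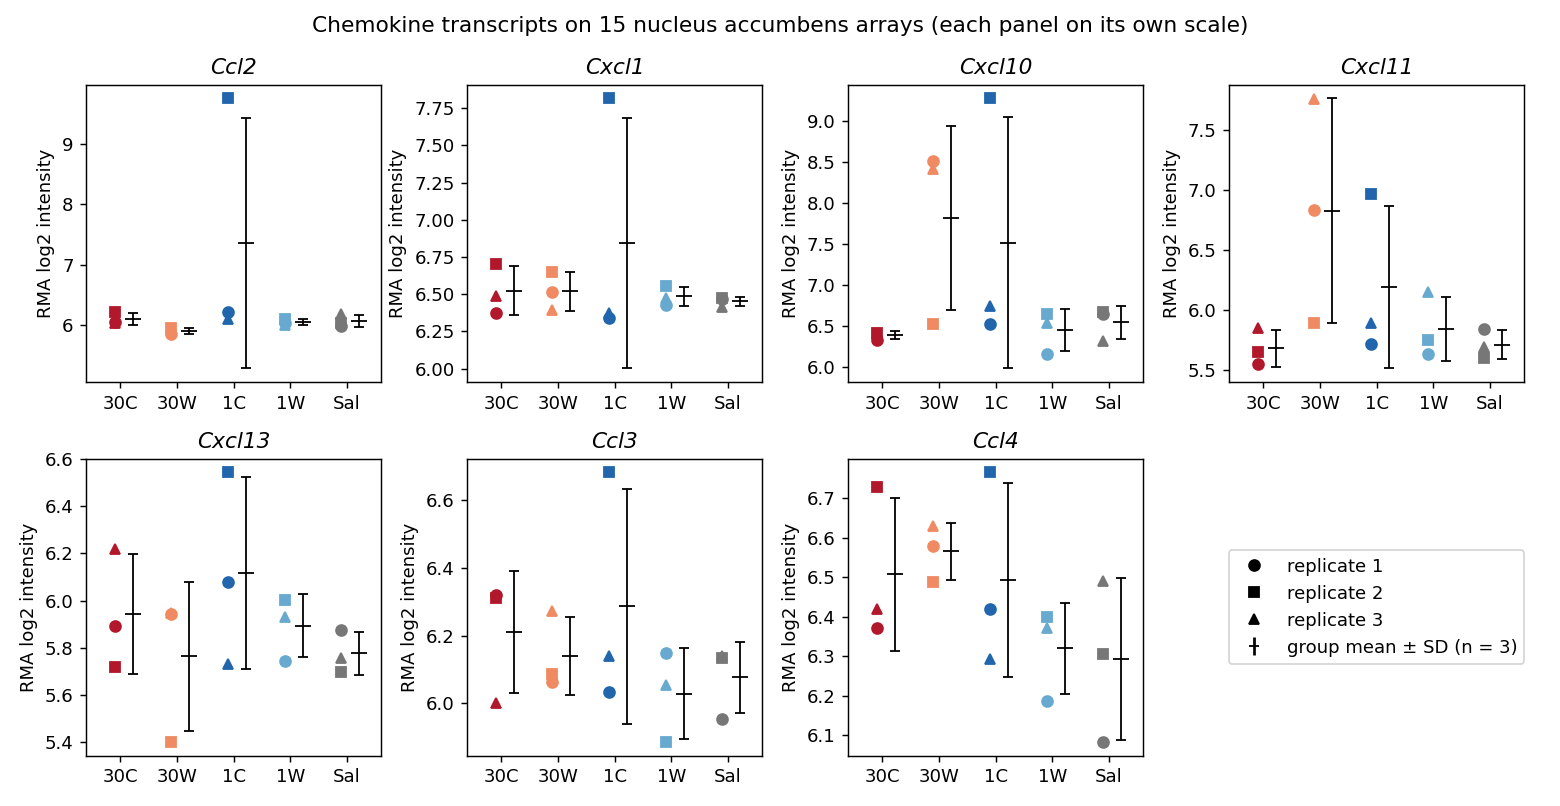
RMA log2 intensity (vertical axis, a separate scale in each panel) of the 7 chemokines on the 3 arrays of each group (horizontal axis); marker shapes give the replicate, and the black bars the group mean ± SD (n = 3). Ccl2 reached 9.75 on 1C replicate 2 alone, while Cxcl10 was also 8.51 and 8.42 on 30W replicates 1 and 3.

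The group means carried the spread of these arrays. Ccl2 averaged 6.10 ± 0.10 in 30C, 5.91 ± 0.05 in 30W and 7.36 ± 2.07 in 1C, against 6.05 ± 0.05 in 1W and 6.07 ± 0.10 in Sal (SD, n = 3 each). The 1C mean lay highest, with an SD larger than its distance from any other group. Cxcl10 averaged 6.39 ± 0.05 in 30C, 7.82 ± 1.12 in 30W and 7.52 ± 1.53 in 1C, against 6.45 ± 0.26 in 1W and 6.55 ± 0.20 in Sal (SD, n = 3 each). Cxcl11 averaged 5.68 ± 0.15 in 30C, 6.83 ± 0.94 in 30W and 6.19 ± 0.68 in 1C, against 5.84 ± 0.27 in 1W and 5.71 ± 0.12 in Sal (SD, n = 3 each). For both Cxcr3 ligands the order of the means was led by 30W and then 1C, and these neighbours differed by less than their SDs. The means of the remaining groups, 1W, Sal and 30C, lay within 0.16 of one another for Cxcl10 and within 0.16 for Cxcl11.

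Cxcl1 averaged 6.52 ± 0.17 in 30C, 6.52 ± 0.13 in 30W and 6.84 ± 0.84 in 1C, against 6.49 ± 0.06 in 1W and 6.45 ± 0.03 in Sal (SD, n = 3 each). Cxcl13 averaged 5.94 ± 0.25 in 30C, 5.76 ± 0.31 in 30W and 6.12 ± 0.41 in 1C, against 5.89 ± 0.13 in 1W and 5.78 ± 0.09 in Sal (SD, n = 3 each). The group means of Ccl3 ran between 6.03 in 1W and 6.29 in 1C, and those of Ccl4 between 6.29 in Sal and 6.57 in 30W. None of the neighbouring means of these 4 genes differed by more than the larger SD of the pair.

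The limma fit over all 11778 genes gave 8 comparisons of 2 groups and the difference between the test's effect at 30 days and at 1 day. In each of the 9, 0% of the genes passed an adjusted p of 0.05, and so 0 of the 7 chemokines did. At an unadjusted p under 0.05, the comparisons held between 357 and 1188 of the 11778 genes. The 1C minus 1W difference was 1.31 for Ccl2 with an SE of 0.66, 1.06 for Cxcl10 with an SE of 0.61, and 0.36 for Cxcl1 with an SE of 0.28. Without 1C replicate 2 the same differences were 0.11 for Ccl2, 0.18 for Cxcl10 and -0.13 for Cxcl1. For Cxcl11 the difference was 0.35 with all arrays and -0.04 without that array, and for Ccl3 it was 0.26 and 0.06. The 1C and 1W values of all 7 genes overlapped.

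At 30 days the mean of both Cxcr3 ligands was lower in 30C than in 30W, where replicates 1 and 3 were the high arrays. The genes were chosen from these values, so the direction is a description. The 30C minus 30W difference was -1.43 for Cxcl10 with an SE of 0.61 and -1.15 for Cxcl11 with an SE of 0.38, and all 3 arrays of 30C lay below all 3 of 30W for both. Such a separation downward held for 3.87% of all genes tested. Both separations were narrow. For Cxcl10, 30W replicate 2 read 6.53 and the highest 30C array 6.42, and for Cxcl11 they read 5.89 and 5.85. Ccl2 was higher in 30C than in 30W by 0.19 without overlap, as were 4.51% of genes. Leaving out each array in turn gave -2.07 to -1.08 for Cxcl10 and -1.62 to -0.68 for Cxcl11, the last without 30W replicate 3. Each of these fits kept 30W replicate 1 or 3, so they cannot show the difference without both high arrays.

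Between withdrawal lengths without a test, 30W minus 1W was 1.36 for Cxcl10 with an SE of 0.61 and 0.99 for Cxcl11 with an SE of 0.38, and the groups overlapped for both. Leaving out each array in turn gave 1.02 to 2.01 for Cxcl10, and for Cxcl11 0.52 without 30W replicate 3 to 1.46 without 30W replicate 2. Here too each fit kept 30W replicate 1 or 3. Ccl4 was higher in 30W than in 1W by 0.25 with no overlap, as were 5.53% of genes, and Ccl2 was lower by 0.14 on the log2 scale with no overlap, as were 10.5% of genes. Against saline, Cxcl11 was 1.12 higher in 30W with an SE of 0.38 and no overlap, as were 6.47% of genes. That difference was 0.65 without 30W replicate 3, and the separation was narrow, since 30W replicate 2 read 5.89 and Sal replicate 1 read 5.84. Ccl2 was lower in 30W than in Sal by 0.16 on the log2 scale with no overlap, as were 7.19% of genes. With the test, 30C minus 1C was -1.12 for Cxcl10 with no overlap, as for 5.87% of genes, and -0.24 without 1C replicate 2. The effect of the test at 30 days minus that at 1 day was -2.49 for Cxcl10 with an SE of 0.86 and -1.50 for Cxcl11 with an SE of 0.54. Without 1C replicate 2 it was -1.61 for Cxcl10. These comparisons share groups, and so they are not separate observations of the 3 high arrays.

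The array 1C replicate 2 stood apart in few genes. On it 15 of the 11778 genes, 0.127%, lay 1 unit or more above their median, and 4 of them were Ccl2, Cxcl10, Cxcl1 and Cxcl11. The other 11 were Timp1 with an excess of 2.72, Lcn2 with 1.98, Csf2rb with 1.87, Ptges with 1.30, Plac8 with 1.21, Lbp with 1.16, Slco2a1 and C1ql3 with 1.10 each, Cp with 1.09, and Tmem252 and Gbp2 with 1.06 each. Timp1 inhibits matrix metalloproteinases, Lcn2 binds iron siderophores, Csf2rb is the common beta chain of the GM-CSF and interleukin-3 receptors, and Lbp binds lipopolysaccharide. Ptges makes prostaglandin E and Slco2a1 carries prostaglandins. This array was the highest of the 15 for 6 of the 7 chemokines and for 4.87% of all genes. 30C replicate 1 had more genes at 1 unit above the median, 32, and 0 of them were among the 7 chemokines.

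By the gap between 1C replicate 2 and the next array, Timp1 led with 2.40, followed by Csf2rb with 1.56, Lcn2 with 1.15 and Lbp with 1.09. Further down were Csf3, the granulocyte colony-stimulating factor, with a gap of 0.73, the coagulation inhibitor Tfpi with 0.69 and the gelatinase Mmp9 with 0.68. Lyz2, the lysozyme of myeloid cells, had a gap of 0.64, Il1b 0.62, Zfp36, which destabilises cytokine messages, 0.62, and the sulfotransferase Sult1a1 0.60. The gaps of Ccl2 and Cxcl1, 3.52 and 1.11, lay within the same range of sizes or above it.

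The 30W surges involved fewer genes. On 30W replicate 1, 4 genes, 0.034%, reached 1 unit above the median, namely Cxcl10, Gbp2 with 1.22, Tnfsf10 with 1.15 and Gbp5 with 1.08. On 30W replicate 3, 3 genes, 0.0255%, did so, namely Ttr with 3.91, Cxcl11 and Cxcl10. Gbp2 and Gbp5 are guanylate-binding proteins induced by interferon, and Tnfsf10 is the death ligand TRAIL. Ccl2 had an excess of -0.18 on 30W replicate 1 and -0.12 on 30W replicate 3, and Cxcl1 of 0.04 and -0.08. The arrays with high Cxcr3 ligands in 30W thus did not have high Ccl2 or Cxcl1.

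**Figure D2:**
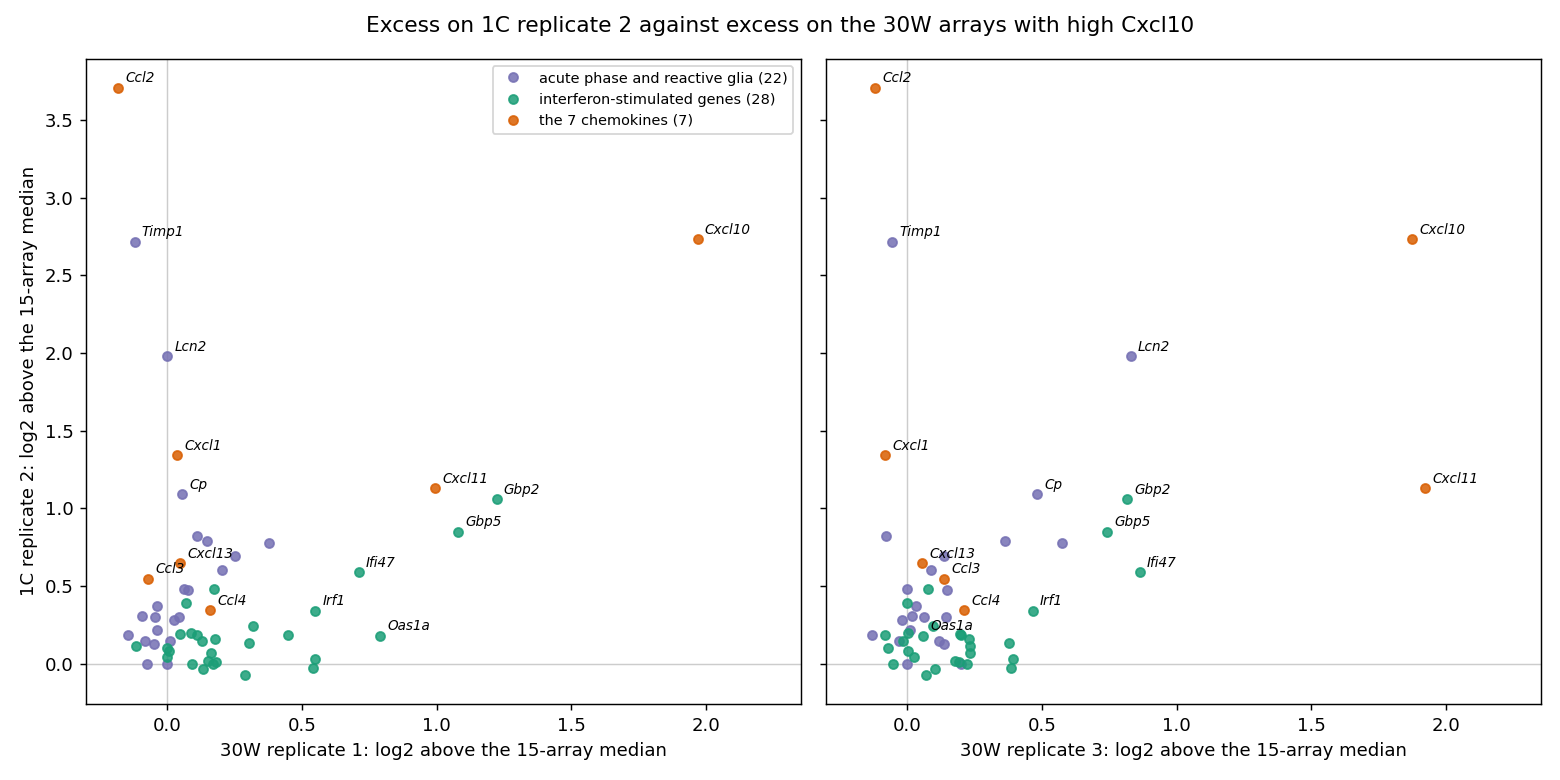
Excess over the 15-array median on 1C replicate 2 (vertical axis, log2) against the excess on 30W replicate 1 (left, horizontal axis, log2) and 30W replicate 3 (right), for the 7 chemokines, 28 interferon-stimulated genes and 22 acute phase and reactive glia genes. Ccl2, Timp1 and Cxcl1 lie high on 1C replicate 2 with values near 0 on both 30W arrays, while Cxcl10, Cxcl11, Gbp2, Gbp5 and Ifi47 lie above 0 on all 3 arrays.

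The rest of the chemokine family followed only in part on 1C replicate 2. Of 28 other chemokines measured, 20 passed the filter, and 5 of these were highest on 1C replicate 2, beside 4.87% of all genes. The median excess of the 20 there was 0.02, against 0.00 for all genes. Their mean level was 7.27 there, against 7.06 to 7.23 on the other 14 arrays. The 5 were Cxcl9 with 0.84, Cxcl16 with 0.75, Ccl20 with 0.66, Ccl19 with 0.42 and Cxcl17 with 0.29. Cxcl2, a neutrophil attractant like Cxcl1, had an excess of 0.87 but did not pass the filter on low values. Ccl5, also called RANTES, had an excess of -0.04, and the neuronal chemokine Cx3cl1 one of 0.00. Cxcl12, made by stromal cells and neurons, lay at -0.25.

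Cxcl9, the third ligand of Cxcr3, passed the filter only through the 3 arrays on which it was high. It read 6.10 on 30W replicate 1, 6.08 on 30W replicate 3 and 6.12 on 1C replicate 2, against 5.30 on 30W replicate 2 and 4.98 to 5.43 on the 12 arrays that include it. Cxcl9 was 0.69 higher in 30W than in 1W. This is a description only, since 30W replicates 1 and 3 were among the arrays that let it through the filter. Cxcl16 was 0.39 higher in 1C than in 1W without overlap, as were 3.57% of genes, with limma's adjusted p = 1.0, so it did not pass. Of the 20 other chemokines, 0 passed in any comparison, beside 0% of all genes, and in 30W against 1W an unadjusted p under 0.05 was reached by 2 upward and 0 downward, as by 4.19% and 5.9% of all genes. The 2 were Ccl21 and Cxcl9, and Cxcl9 had passed the filter only through its high arrays.

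High values were partly shared by neighbours on the chromosome. On chromosome 14, Cxcl11, Cxcl10 and Cxcl9 are neighbouring protein-coding genes in RefSeq's GRCr8, and all had their 3 highest values on the same 3 arrays. Their flanking genes had excesses on 1C replicate 2 of 0.01 for Art3 and -0.01 for Sdad1. Cxcl1 lies beside Cxcl2, with an excess of 0.87, and near Cxcl3, with 0.04. On chromosome 10, Ccl2 is followed by Ccl7, Ccl11 and Ccl12, whose excesses on 1C replicate 2 were 0.13, -0.19 and 0.03. The CC chemokine genes next to Ccl2 therefore had no such excess, and their probe sets did not pass the filter on low values.

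Some receptors of the 7 chemokines showed small differences on these arrays. On 1C replicate 2 the excess was 0.61 for Cxcr2, the Cxcl1 receptor, 0.12 for Ccr2 and 0.00 for Ccr1, none of which passed the filter. Cxcr3 and Cxcr5, which passed, had 0.00 and -0.03. Of the 12 receptors that passed the filter, 1 was highest on 1C replicate 2, beside 4.87% of all genes. It was the scavenger Ackr3 with an excess of 0.30, and the median excess of the 12 was 0.00. Cxcr3 was 0.29 higher in 30W than in 1W with an SE of 0.09 and no overlap, as were 5.53% of genes. It did not pass, with limma's adjusted p = 0.375. Its values in 30W were 6.79, 6.92 and 6.75, the highest on replicate 2, where Cxcl10 and Cxcl11 were not high. In 30W minus Sal its difference was 0.16 with overlap, at limma's adjusted p = 0.727. None of the 12 receptors passed in any comparison, beside 0% of all genes, and in 30W against 1W an unadjusted p under 0.05 was reached by 4 upward and 1 downward, as by 4.19% and 5.9% of all genes. In 30W against Sal it was reached by 0 upward and 3 downward, as by 4.25% and 3.35% of all genes. The 3 were Cxcr5 with a difference of -0.22, the fractalkine receptor Cx3cr1 with -0.12 and Ackr3 with -0.20.

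Interferon-stimulated genes were often high on the 30W arrays with high Cxcl10. Of 28 that passed the filter, 15 had both 30W replicates 1 and 3 among their 3 highest arrays, as did 2.19% of all genes. The list was drawn up with earlier results of these data known, and the arrays were picked by their Cxcl10, so this count is a description. The list's median excess was 0.17 on 30W replicate 1, 0.19 on 30W replicate 3, -0.01 on 30W replicate 2 and 0.14 on 1C replicate 2, against medians of -0.01 and 0.00 over all genes on 30W replicates 1 and 3. Gbp2 read 8.06 and 7.65 on 30W replicates 1 and 3 and 7.90 on 1C replicate 2, against 6.63 to 7.18 on the other 12 arrays. Ifi47, an interferon-inducible GTPase, read 8.17, 8.32 and 8.05 on these 3 arrays, against 7.24 to 7.69 on the other 12. Irf1, a transcription factor of the interferon-gamma response, read 7.39, 7.31 and 7.18 there, against 6.61 to 7.05.

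Other interferon genes were unequal among the 3 arrays. Irgm had an excess of 0.54 and 0.39 on 30W replicates 1 and 3 and -0.03 on 1C replicate 2, and Oas1a had 0.79 on 30W replicate 1, 0.06 on 30W replicate 3 and 0.18 on 1C replicate 2. In the fit, 0 of the 28 passed in any comparison, beside 0% of all genes. In 30W against Sal, an unadjusted p under 0.05 was reached by 11 upward and 1 downward, as by 4.25% and 3.35% of all genes. In 30W against 1W it was reached by 9 upward, as by 4.19% of all genes, with the same 30W arrays. The median differences were 0.20 in 30W minus Sal and 0.17 in 30W minus 1W, against -0.01 and -0.02 over all genes. In 30C against 30W it was reached by 5 downward, as by 1.82% of all genes, with a median difference of -0.09. The list was drawn up with earlier results known, and 30W holds the arrays with high Cxcl10, so these counts too are a description. Bst2, 1 of the 11, read 5.97, 5.99 and 6.04 in 30W and 5.75, 5.69 and 5.81 in Sal. These values lie near the percentile of the filter, which Bst2 may have passed through the 30W arrays.

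Genes of NF-kB signalling and inflammatory cytokines differed in part on 1C replicate 2. Of 22 that passed the filter, 8 were highest there, beside 4.87% of all genes, with a median excess of 0.12. They included Csf3 with 0.87, Il1b with 0.78, Zfp36 with 0.75, the NF-kB inhibitor Nfkbia with 0.63 and Nfkbiz with 0.37. Tnf, the cytokine that induces many chemokines, had an excess of 0.00, and Il6 one of 0.66 without passing the filter. On the 30W replicates 1 and 3 the median excess of this list was 0.00 and 0.04. None of the 22 passed in any comparison, beside 0% of all genes. In 1C against Sal an unadjusted p under 0.05 was reached by 5 upward, as by 2.1% of all genes, and 0 downward. This list too was drawn up with earlier results of these data known, so its counts are a description.

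Acute phase and reactive glia genes mostly had their highest value on 1C replicate 2. Of 22 that passed the filter, 15 were highest on this array, as were 4.87% of all genes, and the median excess of the 22 was 0.34. The list was drawn up with earlier results of these data known, so this count is a description. Beside Timp1, Lcn2 and Cp, the pentraxin Ptx3 had an excess of 0.82, Tgm2 0.79, Lrg1 0.78 and Socs3, the feedback inhibitor of cytokine signalling, 0.69. The astrocyte filament Gfap had 0.37. None of the 22 had both 30W replicates 1 and 3 among its 3 highest arrays. On 30W replicate 3, however, Lcn2 had an excess of 0.83, Lrg1 of 0.575 and Cp of 0.48. The list's median excess was 0.07 on that array and 0.00 on 30W replicate 1. Of 19 immediate early genes, 0 were highest on 1C replicate 2, and their median excess there was 0.10.

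**Figure D3:**
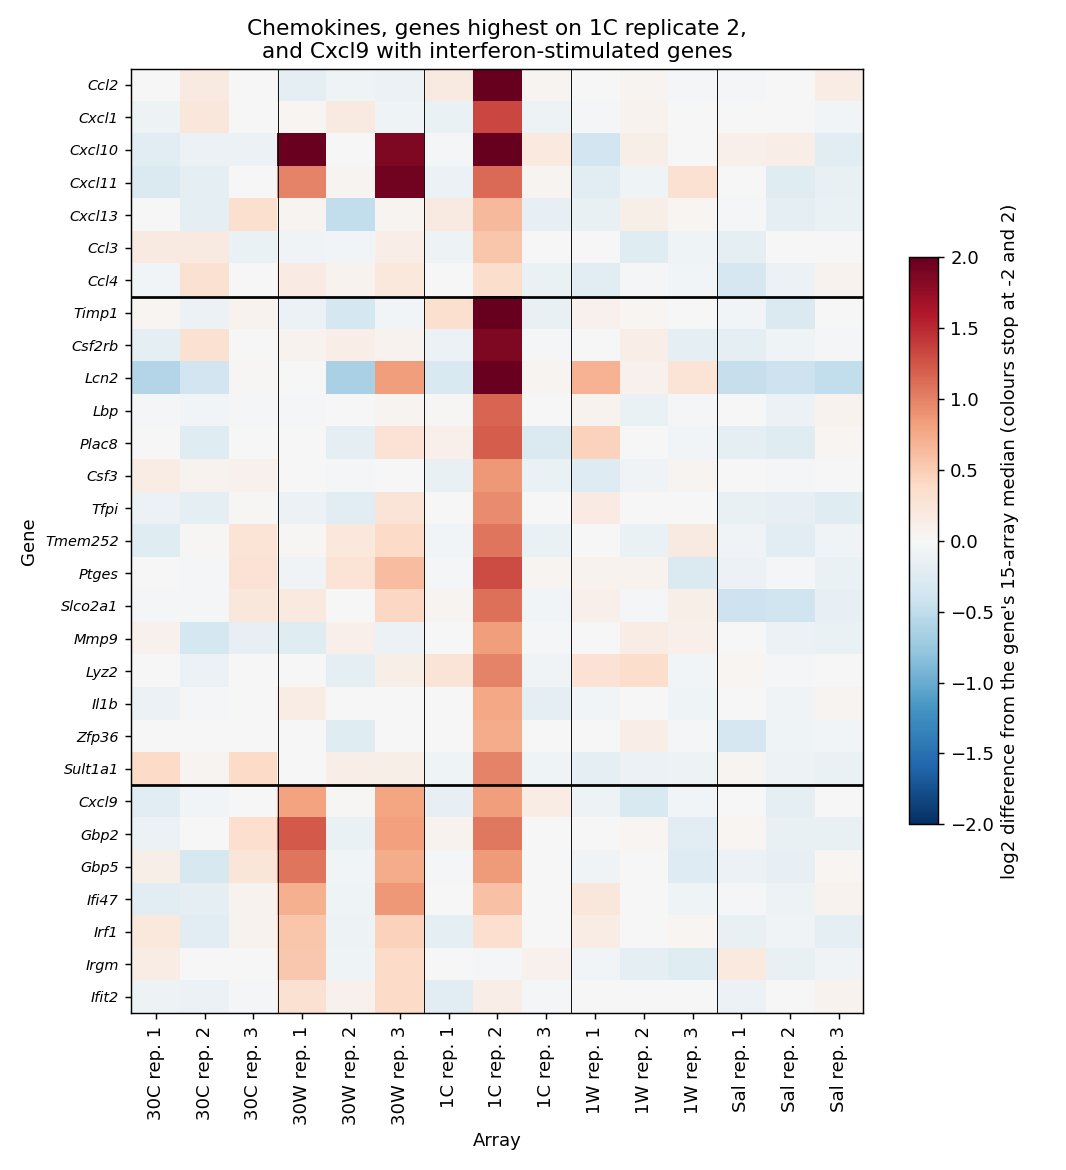
Difference from the gene's 15-array median (log2, colours stop at -2 and 2) for the 7 chemokines (top), the 15 genes with the largest gap of 1C replicate 2 to the next array (middle), and Cxcl9 with 6 interferon-stimulated genes (bottom), on each array (columns, 3 per group). The middle block is high on 1C replicate 2. The bottom block is high on 30W replicates 1 and 3 but unequal on 1C replicate 2, with Irgm at -0.03 and Ifit2 at 0.13.

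Markers of monocytes and neutrophils moved with the surges in part, while those of lymphocytes, given below, did not rise on 1C replicate 2. The monocyte and macrophage list, 9 genes that passed, had a level, taken as the mean over its genes, of 7.36 on 1C replicate 2. On the other 14 arrays the level was 6.88 to 7.10. Of the 9 genes, 5 were highest on 1C replicate 2, beside 4.87% of all genes. Plac8 had an excess of 1.21, Lyz2 1.00 and Cd14 0.26, but the macrophage genes Cd163 and Mrc1 had 0.10 and 0.06. The neutrophil list, 6 of 13 measured genes that passed, lay at 6.70 on this array, against 6.38 to 6.56 on the other 14. Of the 6 neutrophil genes that passed, 3 were highest on 1C replicate 2, beside 4.87% of all genes. S100a9 had an excess of 1.11 and Mmp8 of 0.73, both without passing the filter. Mmp9 had 0.84, Fcnb 0.64 and Csf3r 0.34, while S100a8, Elane, Mpo and Camp had 0.04, 0.01, -0.15 and -0.20. By group the neutrophil list ran 6.40 to 6.44 in 30C, 6.40 to 6.56 in 30W and 6.43 to 6.70 in 1C, against 6.41 to 6.48 in 1W and 6.38 to 6.42 in Sal, and 5 of its 13 measured genes lay below the 30th percentile on all arrays. The part of such cells in the chemokine values was not tested, and in whole tissue a change in the number of cells of a type cannot be told apart from a change in RNA per cell.

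Lists of resident cells and of lymphocytes differed less in level on 1C replicate 2. Of 17 microglia genes, 7 were highest on it, beside 4.87% of all genes. C1qc had an excess of 0.61 and Itgam 0.43, but the median was 0.04, P2ry12 lay at -0.16 and Trem2 at -0.44. The list level was 8.55 on this array, against 8.35 to 8.62 on the other 14. Of 6 lymphocyte genes that passed, 0 were highest on 1C replicate 2, beside 4.87% of all genes. The level of this list there was 6.2995, below the 6.3047 to 6.5203 of the other 14 arrays. Of 14 endothelial genes, 4 were highest on 1C replicate 2, beside 4.87% of all genes, with a median excess of 0.00. The oligodendrocyte list, 11 genes that passed, differed between groups: 10 of 11 lay lower in 1C than in 1W with an unadjusted p below 0.05, as did 2.17% of all genes, and 6 of 11 lay lower in 30W than in 1W, as did 5.9%. The median differences were -0.19 and -0.15, and 0 of the 11 passed an adjusted p of 0.05. Its level ran 10.47 to 10.54 in 30C, 10.57 to 10.62 in 30W and 10.53 to 10.56 in 1C, against 10.59 to 10.86 in 1W and 10.58 to 10.75 in Sal. Its part in the chemokine values was not tested.

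Markers of neighbouring tissue also varied between arrays. The choroid plexus list reached 6.99 on 30W replicate 3, against 6.08 to 6.80 in the groups without it, and Ttr, the transthyretin of choroid plexus, read 10.20 there. Cortical projection neuron genes had a median excess of 0.52 on 1C replicate 2 and 0.18 on 30W replicate 1, and their list level ran between 6.95 and 9.46 over the other 14 arrays. Medium spiny neuron genes, the markers of the nucleus accumbens, were present on all arrays at 10.85 to 11.57 on average. Of these, 0 of 13 were highest on 1C replicate 2, beside 4.87% of all genes. The part of these tissues in the chemokine values was not tested.

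**Figure D4:**
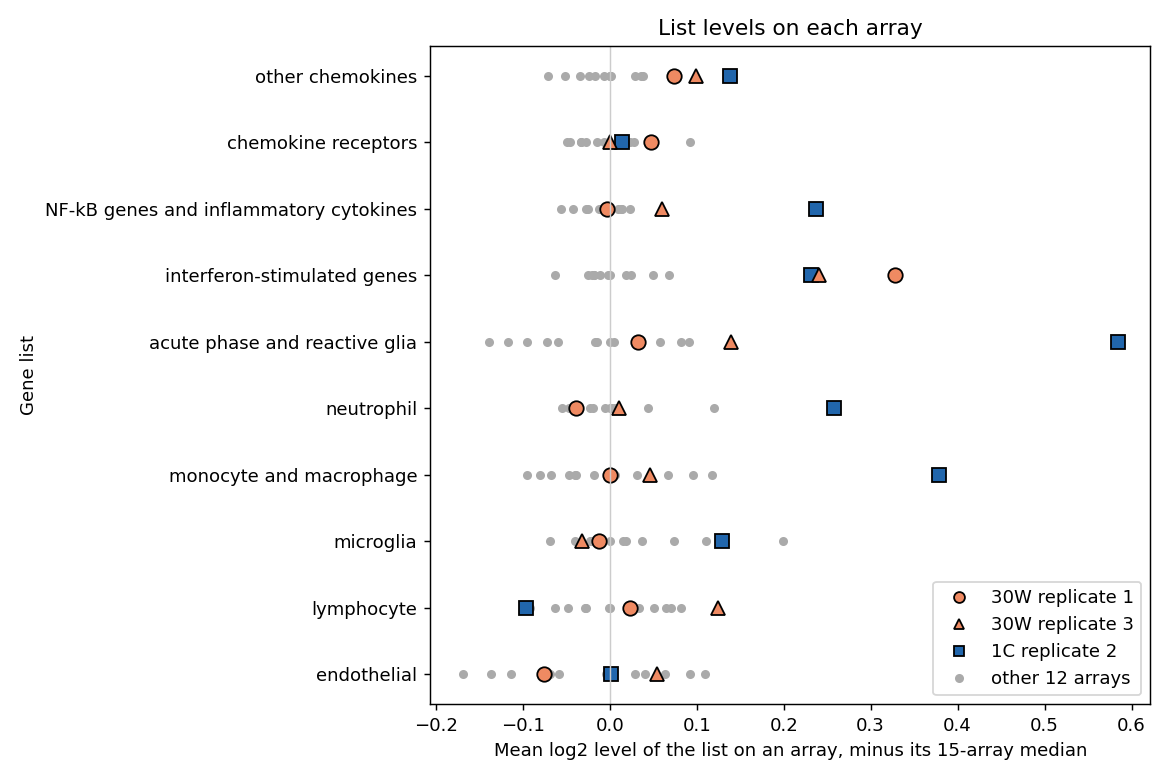
Mean log2 level of each gene list on an array minus the list's median over the 15 arrays (horizontal axis), with 30W replicates 1 and 3 and 1C replicate 2 marked and the other 12 arrays in grey. The acute phase, monocyte, neutrophil, NF-kB and other chemokine lists are furthest right on 1C replicate 2. The interferon list is to the right on all 3 marked arrays.

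Likeness was measured as Pearson's r over the 15 arrays, of which those of a group share their treatment, and is given as a description with the value over 13 arrays that leave out 1C replicate 2 and 30W replicate 3, the farthest from the median of the mean deviation of the 7 genes. For that mean deviation the most similar genes were Upp1, a pyrimidine salvage enzyme, with r = 0.94 over 15 arrays and 0.48 over 13, and the metallothionein Mt2A with 0.94 and 0.44. Il1b had 0.90 and 0.58, Fcnb 0.90 and 0.48, and Lbp 0.89 and -0.16. These relations thus rest on the arrays left out. Ccl2 was most like Timp1, with 0.98 and 0.45, Lbp, with 0.98 and 0.06, and Csf2rb, with 0.96 and 0.16. Cxcl1 was most like Csf2rb, with 0.98 and 0.78, the crystallin Cryaa, with 0.96 and 0.61, and Ccl2, with 0.95 and -0.14.

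The Cxcr3 ligands still had high r over the 13 arrays, but these hold 30W replicate 1, on which both were high. That array can keep r high by itself, so the 13 arrays cannot show whether the likeness holds without high arrays. By rank over the 15 arrays, Spearman's r of Cxcl10 was 0.53 with Cxcl9, 0.50 with Gbp2 and 0.39 with Gbp5. Spearman's r of Cxcl11 was 0.79 with Cxcl9, 0.60 with Ifi47 and 0.71 with Cxcl10. Cxcl10 and Cxcl11 had r = 0.89 over 15 arrays and 0.90 over 13. Cxcl10 was most like Cxcl9, with 0.94 and 0.87, Gbp2, with 0.92 and 0.89, and Gbp5, with 0.89 and 0.85. Cxcl11 was most like Cxcl9, with 0.91 and 0.89, and Ifi47, with 0.91 and 0.78. Ccl4 was most like Nfkbiz, with 0.87 and 0.86, Epha2 and Lgalsl, and Ccl3 was most like Klhl14, with 0.84 and 0.81, Arg1 and Pkp2. Cxcl13 was most like Ifitm2, with 0.86 and 0.76, Ifitm3, with 0.83 and 0.66, and Cib1, with 0.82 and 0.76. Cxcl10 and Ccl2, by contrast, had 0.62 over 15 arrays and -0.59 over 13. Of the 13 arrays, 30W replicate 1 had the lowest Ccl2, 5.86, and the highest Cxcl10, 8.51. That array can make this r negative by itself, so no opposite relation is read from it.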

How the data were processed

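RNA of 15 nucleus accumbens samples was measured on 1 Affymetrix rat array each. The deposited values are log2 intensities, for which the submitters' processing notes name RMA without a version. This method corrects background, quantile-normalises the arrays and summarises probes, so a change shared by most genes would not appear. The labels' protocol names a 3' IVT kit while the identifiers are of a whole-transcript array, and no scanner file was analysed here.

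The table held 28826 probe sets, of which 15209 had 1 platform symbol, 306 several and 13311 were unnamed here; 15178 matched RefSeq genes. For each of 14497 genes the probe set with the highest mean was taken, and the 11778 genes with 3 or more arrays over the 30th percentile were kept. Arrays correlated at 0.993 to 0.997 with one another, and their number limits the precision.

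A mean per group was fitted to the 15 arrays by lmFit and eBayes of limma 3.58.1, under R 4.3.3 (residual degrees of freedom 10, prior 3.44), and two-sided p-values were adjusted by Benjamini-Hochberg over all genes kept. The fit was tested on simulated data.

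The members, gene lists and naming rules were chosen with earlier results of these data known. Named were the 7 chemokines, genes most like them or their mean, the 15 genes with the largest gap on any array holding at least 3 members 1 unit above the median, and per list the largest excesses and the receptors. Genes named for high values on 30W replicates 1 and 3, and negative examples such as Tnf, were chosen after their values were seen. Alternatives covered the array weights, the variance model, the normalization, the filter, the probe set taken, the arrays fitted, the threshold, a replicate block and each array left out.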

Additional observations from a re-analysis of the deposited data

How the results depend on the processing

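No gene passed an adjusted p of 0.05 in any of the 9 limma comparisons, and the alternatives left this unchanged for 214 counts and gave 11 counts above 0, none of which held a member. With array weights, 1 gene passed in 30C against 30W, 2 in 30C against 1C and 3 in 30W against 1W, and at a threshold of 0.10, 1 gene passed in 30C against 30W. Leaving out each array in turn gave 0 to 1 genes in 30C against 30W (Csrp2 without Sal replicate 3, Nfil3 without 1C replicate 2), 0 to 1 in 30W against 1W (Cd180 without 30W replicate 1) and 0 to 2 in 30C against 1C (Itm2a and Nfil3 without 1C replicate 2, Il1r1 and Lgals3 without 30C replicate 3). Without 30C replicate 3, Lgals3 also passed in 1C against 1W and in 1C against Sal, each ranging from 0 to 1. The cause of these changes was not tested.

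Of the chemokine differences, 1442 values stayed within the spread of replicates and 16 moved, all of them without 1C replicate 2, for Ccl2, Ccl3, Cxcl1 and Cxcl10 in the 4 comparisons that hold 1C. In 1C against 1W they became 0.11 for Ccl2, 0.06 for Ccl3, -0.13 for Cxcl1 and 0.18 for Cxcl10. The spread here is the gene's residual SD in the fit, which the high arrays themselves widen. A value within it can therefore still depend on a single array. In 30W against 1W, Cxcl11 went from 0.99 to 0.52 without 30W replicate 3 and counted as within the spread. All 35 recomputed excesses stayed within the spread, while 23 likeness values moved and 13 did not. With the replicate number as a block, 0 genes passed in every comparison. The labels do not state that the numbers pair samples. Of 30 same-number pairs of arrays, 10 had deviations correlated above 0.1, over a range of -0.62 to 0.51, and 6 of 15 arrays correlated best with their own number.

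The arrays number 3 per group, the genes were chosen from these values, and Ccl2, Cxcl11 and Cxcl13 lie near the 30th percentile of intensity, which limits how small a difference can be read.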

Other observations

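Some genes outside the chemokine and interferon lists were high on 30W replicates 1 and 3, and were picked after their values were seen. Tnfsf10, the death ligand TRAIL, read 8.06 and 7.89 on these arrays and 6.87 on 1C replicate 2, against 6.74 on 30W replicate 2 and 6.47 to 7.44 on the 12 arrays that include it. It was thus not high on 1C replicate 2, unlike Cxcl10. Xdh, the xanthine dehydrogenase of purine breakdown, read 7.86 and 7.69 on 30W replicates 1 and 3 and 7.59 on 1C replicate 2, against 7.19 to 7.42 on the same 12 arrays. Kng1, the kininogen precursor of bradykinin, read 7.77 and 7.48 there and 6.96 on 1C replicate 2, against 6.58 to 7.29.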
